A study of Mus musculus with 10 samples.

Results

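Genes of fatty acid uptake and mitochondrial fatty acid oxidation were followed in mouse calf muscle. The 35 genes were taken by symbol from the deposited table of 21956 genes, and all 35 were found and passed the filter on low counts. Their symbols come from a list of known roles, compiled when earlier results of these data were known. Poly(A) RNA of gastrocnemius, a large and mostly fast-twitch calf muscle, was sequenced from wild-type (WT) mice in 10 libraries, 5 labelled Sham and 5 labelled HLI. The labels disagree on the material, and the gastrocnemius that they name is taken here. The abbreviation HLI is taken to mean hindlimb ischaemia, although no label writes it out, and the labels used here give no age, sex or time after surgery. Both groups share the genotype and the tissue and differ in the treatment label only. The labels do not state whether each library is its own animal, and the p-values therefore cover the spread among these libraries alone, which may be technical. The comparison asks whether transcripts for burning fat differ in muscle between HLI and Sham.

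Muscle takes up fatty acids that lipoprotein lipase releases from circulating triglyceride, activates them to acyl-CoA and carries them into mitochondria as carnitine esters. Inside, the beta-oxidation spiral shortens the chain in repeated rounds and yields acetyl-CoA, NADH and reduced flavoprotein, which feed the citric acid cycle and the respiratory chain. Because every round needs oxygen further down the chain, fat oxidation depends on perfusion, and the nuclear receptors PPARα and PPARδ are known as activators of many of its genes in muscle.

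Values below are CPM, counts relative to library sizes that were scaled by TMM (a trimmed mean of ratios), unless TPM (a relative transcript abundance that takes gene length into account) is named. Library totals ran from 16556385 to 22136299 estimated counts. A list of 11 genes is called fast fibre markers here. It holds Acta1 and Ckm, which slow fibres express too, so its values do not measure fast fibres alone. The summed level of the 11 genes lay between 139559 and 189572 CPM in Sham and between 60332 and 162479 CPM in HLI. Muscle transcripts were thus abundant in every library. HLI replicate 3 was the lowest library for these markers, for 8 slow fibre markers, and in similarity to the other libraries. Its median Spearman correlation with them was 0.941, against 0.956 to 0.979 for the rest. Myh3, the embryonic myosin of regenerating fibres, reached 164 CPM in Sham replicate 1, where the remaining Sham libraries held 5.63 CPM or less. In HLI replicate 1 it was 7.71 CPM, where the remaining HLI libraries held 80.0 CPM or more. Results are therefore also given without HLI replicate 3 and without both libraries numbered 1. The 7 macrophage markers summed to 495 to 1282 CPM in Sham and 682 to 2738 CPM in HLI. The 7 adipocyte markers summed to 289 to 479 CPM in Sham and 45.6 to 449.7 CPM in HLI, the lowest being HLI replicate 4. The 3 markers of brown fat summed to 1.02 to 1.99 CPM in Sham and 0.468 to 2.07 CPM in HLI. Of these, Ucp1, the defining gene, had an estimated count of 0 in every library, and 3 counts in the library with the smallest scaled size are worth 0.199 CPM. Cidea had counts in every library and Elovl3 in some.

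Of the 35 genes, 33 had lower and 2 had higher values in HLI than in Sham, and none passed the test as a single gene. The median log2 fold change of the 35 was -0.32, against 0.03 for all 13404 tested genes. Ppara had the lowest value (-0.72), and the 2 above 0 were Cpt1a (0.41) and Slc27a4 (0.04). With edgeR's quasi-likelihood test and Benjamini-Hochberg adjustment over all tested genes, 0 members were called, beside 0% of all genes, and the members' adjusted p ran from 0.29 to 0.86. At an unadjusted p under 0.05, 12 members (34.3%) were lower and 0 were higher, beside 6.15% and 10.7% of all tested genes. DESeq2 called 45 genes (0.313% of those it adjusted) and 0 members, and had 16 members lower at an unadjusted p under 0.05, beside 6.54% of all genes it tested. Values below 0 were found in 94.3% of members and in 46.2% of all tested genes. On the deposited TPM without further scaling the median of all genes moved to 0.19, and Cd36, Lpl, Acadl, Acads, Etfa and Pdk4 then stood between 0.01 and 0.11, so 27 members were below 0. The members' median on that scale was -0.13, which is -0.32 once the median of all genes is subtracted. Only 1 member, Ppara, had every HLI library below every Sham library, beside 0.873% of all tested genes, and 0 had every HLI library above, beside 0.776%.

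The members varied together across libraries, so their number is not a number of independent observations. HLI replicate 3 was the lowest of all 10 libraries for 27 members and lay below every Sham library for 30. HLI replicates 1 and 2 lay below every Sham library for 26 and 24 members, HLI replicate 5 for 14, and HLI replicate 4 for 4. Shares of all tested genes are not given for these counts by library, so they do not set the members apart from other genes. The counts are on CPM, and HLI replicate 3 had the largest TMM factor, which lowers its CPM. That factor was 1.225, against 0.9099 to 1.076 in the other libraries. On deposited TPM the members' sum was still lowest in HLI replicate 3, at 4527 TPM, against 4740 TPM in HLI replicate 2. Single genes could differ on TPM, as Acadl was highest of all 10 libraries in HLI replicate 3, at 243.8 TPM. HLI replicate 4 was the highest HLI library for 30 members and exceeded the Sham median for 17. Within Sham, replicate 4 was the highest library for 22 members and replicate 1 the lowest for 22. The count of members lower at an unadjusted p under 0.05 was therefore sensitive to single libraries. It was 25 without HLI replicate 4, where 14.5% of all genes were also lower at that threshold. It was 5 without Sham replicate 2 and 5 without Sham replicate 4, beside 2.86% and 3.85% of all genes. Leaving out Sham replicate 5 gave 6, beside 2.74%, and leaving out HLI replicate 1 also gave 6, beside 6.25%. It was 7 without HLI replicate 2 and 7 without HLI replicate 5, beside 5.71% and 3.55%. Without HLI replicate 3 it was 8, beside 3.46% of all genes, the members' median was -0.23, and 1 member had no overlap between groups, beside 0.912% of all genes. Without HLI replicate 4 the median was -0.45, and 12 members had no overlap between groups, beside 6.11% of all genes. Without both libraries numbered 1, 54 genes (0.401%) passed edgeR's test, 0 of them members, and the members' median was -0.38 with 10 lower at an unadjusted p under 0.05, beside 7.02% of all genes. Within HLI, the fibre marker sums were also lowest in replicate 3 and highest in replicate 4, at 60332 and 162479 CPM for the fast fibre markers. The macrophage marker sums went the other way, at 2738 CPM in HLI replicate 3 and 682 CPM in HLI replicate 4. The part of fibre and macrophage content in the members' values was not tested. In bulk tissue, fewer muscle fibres and less of these transcripts per fibre cannot be told apart.

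**Figure D1:**
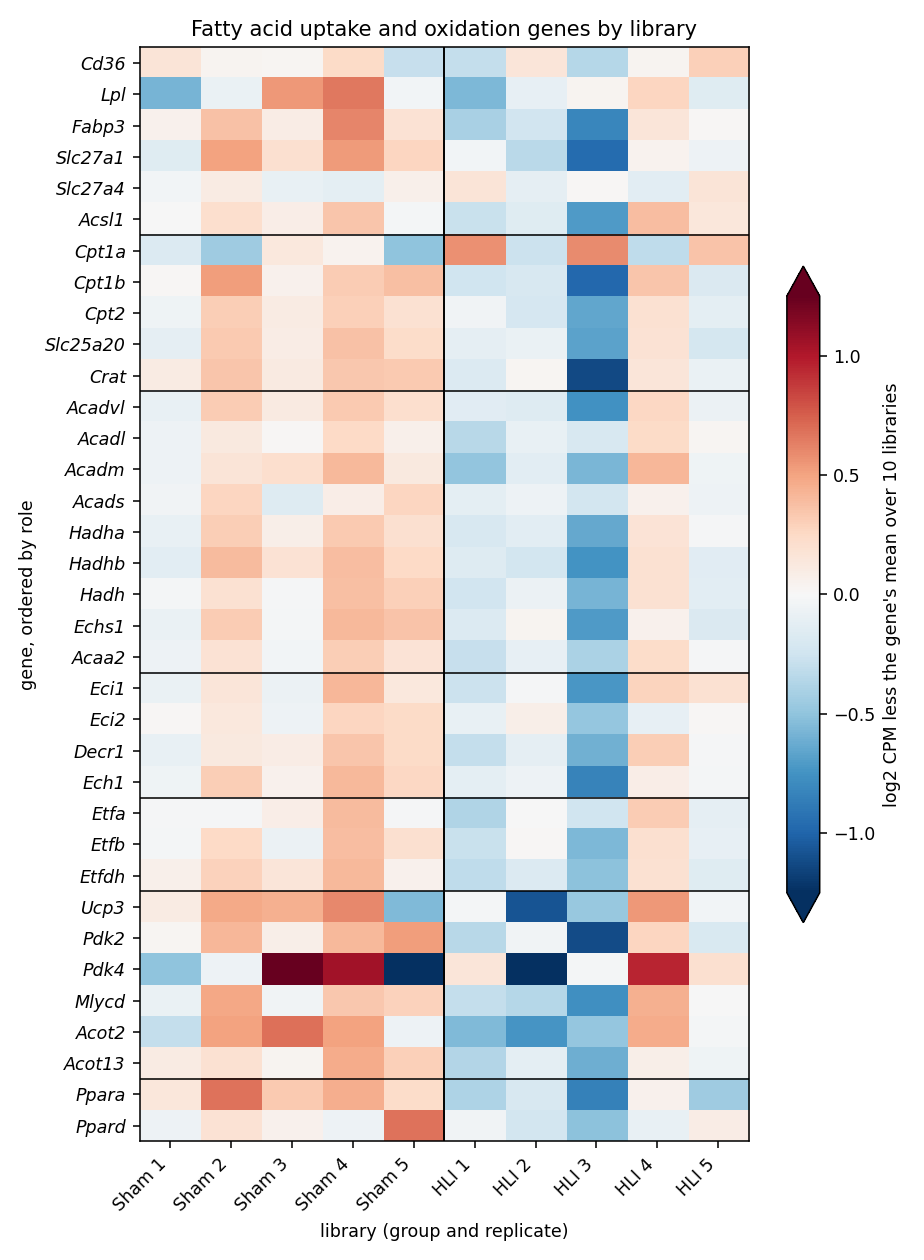
Heat map of 35 genes (rows, ordered by role with lines between groups) in 10 libraries (columns), coloured by log2 CPM less the gene's mean over the 10 libraries. HLI replicate 3 is the lowest library for 27 genes, HLI replicate 4 resembles Sham for many, and the Pdk4 row ranges widely within both groups.

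**Figure D2:**
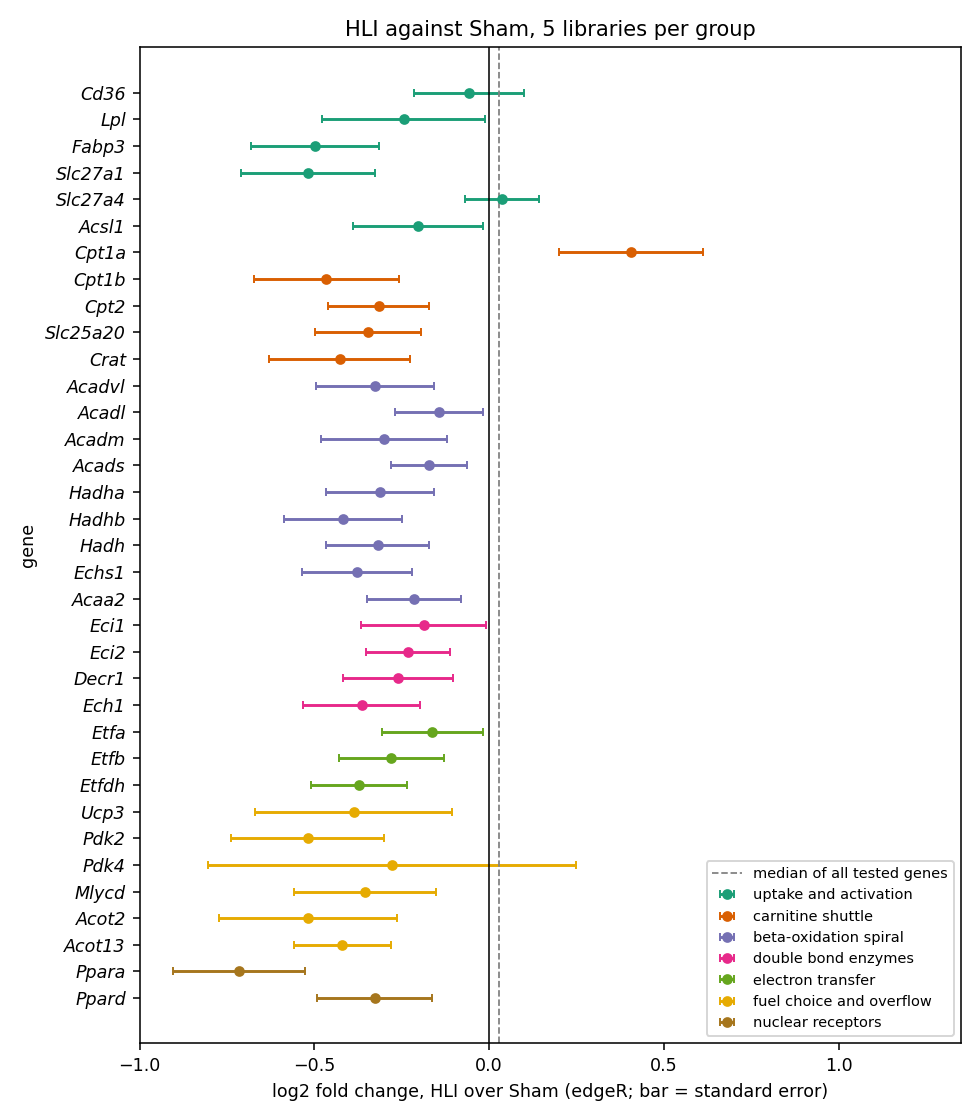
Log2 fold change of HLI over Sham for each gene (edgeR estimate, bar = standard error, 5 libraries per group), coloured by role, with the median of all tested genes as a dashed line. The points of 33 genes lie below 0, and those of Cpt1a and Slc27a4 above.

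Ppara, which encodes the fatty acid-sensing receptor PPARα, was the member with the largest difference. In Sham replicates 1 to 5 it stood at 5.79, 8.38, 6.59, 7.21 and 6.16 CPM, and in HLI replicates 1 to 5 at 4.02, 4.56, 2.92, 5.44 and 3.86 CPM. All 5 HLI libraries lay below all 5 Sham libraries, by a narrow gap between 5.44 and 5.79 CPM. The log2 fold change was -0.72 (SE 0.19), with 6.83 ± 1.02 CPM for Sham and 4.16 ± 0.930 CPM for HLI (mean ± SD, n = 5), with an unadjusted p of 0.0026 that did not pass adjustment in edgeR (adjusted p = 0.29). It stayed between -0.85 and -0.61 whichever library was left out. Ppard, the gene of the related receptor PPARδ, which is more widely expressed, stood at 19.5, 23.3, 21.2, 19.5 and 32.8 CPM in Sham replicates 1 to 5 and at 19.8, 17.5, 14.4, 19.1 and 21.8 CPM in HLI replicates 1 to 5. Sham replicate 5 was far above the rest, the groups overlapped, and the log2 fold change was -0.33 (SE 0.17, edgeR adjusted p = 0.32). Both receptors were low per length, with mean TPM in Sham of 4.15 for Ppara and 14.3 for Ppard.

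These receptors bind DNA with a retinoid X receptor partner at a direct repeat of the core AGGTCA with a spacer of 1 base, often far from the start site. Promoter windows, 250 bases before to 50 bases after a start site in RefSeq on GRCm38.p6, were found for 29 of the 35 members in 33 windows. Lpl, Cpt1b, Crat, Acaa2, Decr1 and Acot13 had no window and were not searched. The submitters' notes name another build (mm8), so the windows give sequence context only. The full repeat, AGGTCA and 1 base of any kind and AGGTCA again, searched on both strands, was in 0 of the 33 windows and in 0.0396% of 32851 windows of all genes. A single core AGGTCA, on either strand, was in 6 of the 33 windows (18.2%) and in 16.3% of all windows, close to each other. The extended core TCAAGGTCA, which contains AGGTCA and which estrogen-related receptors bind, was in 0 of 33 and in 0.423% of all, and the box CCAAT was in 45.5% and 37.4%. The box TATAAA was in 0 of 33 and in 13.6% of all. A match is a run of letters and not a measured site. The 6 genes with a core are shown with up to 12 bases on each side, 5′ to 3′ on the gene's strand, with the core in capitals (TGACCT where it lies on the opposite strand), so that its surroundings can be compared. That of Acadm lies 1 base from the edge of its window and is cut short there.
Acadm (chr3:153944875-153944893, minus strand, core starting 249 bases before the start site): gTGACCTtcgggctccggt
Acadvl (chr11:70015498-70015527, minus strand, core starting 87 bases before the start site): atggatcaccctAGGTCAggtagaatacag
Cd36 (chr5:17836107-17836136, minus strand, core starting 228 bases before the start site): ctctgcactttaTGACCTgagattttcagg
Cpt1a (chr19:3323195-3323224, plus strand, core starting 94 bases before the start site): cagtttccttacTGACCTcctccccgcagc
Echs1 (chr7:140116487-140116516, minus strand, core starting 83 bases before the start site): accagcccgctcAGGTCAcgggtccacccc
Ucp3 (chr7:100472830-100472859, plus strand, core starting 149 bases before the start site): ttaaagagccccAGGTCAcggaagctaaac
Ucp3 (chr7:100472935-100472964, plus strand, core starting 44 bases before the start site): gaattaggtttcAGGTCAgctggtgcacag

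Cpt1a, the only member of the shuttle with values above 0, and Ppara, the member with the lowest fold change, are shown with the whole 250 bases upstream of the start site, with AGGTCA cores and CCAAT boxes of either strand in capitals. The Ppara window held neither and was 76.4% G and C, and that of Cpt1a was 59.6%, against a median of 58.8% over the members' windows and 52.4% over all.
Cpt1a (chr19:3323051-3323300, plus strand): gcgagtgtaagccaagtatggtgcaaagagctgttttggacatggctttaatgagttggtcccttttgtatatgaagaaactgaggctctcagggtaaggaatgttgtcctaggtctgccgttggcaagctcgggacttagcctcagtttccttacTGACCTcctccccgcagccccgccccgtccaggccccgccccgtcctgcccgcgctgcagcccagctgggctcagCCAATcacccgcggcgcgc
Ppara (chr15:85735526-85735775, plus strand): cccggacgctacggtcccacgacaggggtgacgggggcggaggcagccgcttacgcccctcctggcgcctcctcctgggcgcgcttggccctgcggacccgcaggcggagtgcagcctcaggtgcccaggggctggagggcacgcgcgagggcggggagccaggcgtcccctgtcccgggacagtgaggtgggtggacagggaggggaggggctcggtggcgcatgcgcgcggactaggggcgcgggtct

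Among the uptake and activation genes, 5 of 6 had values below 0, with a median log2 fold change of -0.22. Fabp3, the muscle fatty acid-binding protein that carries fatty acids through the cytosol, was the most abundant of the 35 per length, with a mean of 746 TPM in Sham and 600.0 TPM in HLI. It stood at 313, 389.7, 322, 460.2 and 341 CPM in Sham replicates 1 to 5 and at 228, 255, 171, 335 and 304 CPM in HLI replicates 1 to 5. HLI replicates 1, 2, 3 and 5 lay below every Sham library and HLI replicate 4 within the Sham range, and the log2 fold change was -0.50 (SE 0.18, edgeR unadjusted p = 0.019, adjusted p = 0.29). Slc27a1, which encodes the insulin-responsive fatty acid transport protein FATP1, read 33.5, 52.8, 42.6, 53.8 and 44.7 CPM across the Sham replicates in order and 36.4, 29.4, 19.1, 38.3 and 35.5 CPM across the HLI replicates. Its groups overlapped through Sham replicate 1, which was lower than 3 of the HLI libraries, and the log2 fold change was -0.52 (SE 0.19, edgeR adjusted p = 0.29). The related transporter gene Slc27a4 (FATP4) was the steadiest of the 35, between 15.2 and 18.6 CPM in all 10 libraries. Its values were 16.3, 17.9, 15.6, 15.3 and 17.4 CPM in Sham and 18.6, 15.4, 16.8, 15.2 and 18.6 CPM in HLI, and its log2 fold change of 0.04 (SE 0.11) was -0.0050 without Sham replicate 4 and also below 0 without HLI replicate 1.

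Cd36, the fatty acid translocase of fibres and of capillary endothelium, differed by less than its spread, at 514 ± 68.5 CPM in Sham against 494 ± 96.3 CPM in HLI (SD, n = 5). Its log2 fold change of -0.06 (SE 0.16, adjusted p = 0.85 by edgeR) was 0.0050 without HLI replicate 1, 0.02 without HLI replicate 3 and 0.11 on unscaled TPM. Of 7 endothelial markers, 6 had values above 0 and their sum was 845 to 1528 CPM in Sham and 935 to 1508 CPM in HLI, and their part in the Cd36 value was not tested. Lpl, the lipase that frees fatty acids at the capillary wall, averaged 497 ± 168 CPM in Sham against 419.6 ± 85.6 CPM in HLI. Sham replicates 3 and 4, at 643 and 698 CPM, were its highest libraries, and its log2 fold change was -0.24 (SE 0.23, edgeR adjusted p = 0.54), or 0.01 on unscaled TPM. Acsl1, the main acyl-CoA synthetase of muscle, averaged 319 ± 35.3 against 277 ± 78.0 CPM, with its highest library (HLI replicate 4, 382 CPM) and its lowest (HLI replicate 3, 179 CPM) in the same group.

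In the carnitine shuttle, 4 of 5 genes had values below 0, with a median of -0.35, and the exception was the liver-type isoform of its first enzyme. Carnitine palmitoyltransferase 1 makes acyl-carnitine at the outer mitochondrial membrane and is the step that malonyl-CoA inhibits. Its muscle isoform, Cpt1b, stood at 236, 337, 243, 291 and 304 CPM in Sham replicates 1 to 5 and at 197, 203, 118, 297 and 207 CPM in HLI replicates 1 to 5. HLI replicate 4 lay inside the Sham range, the other 4 below it, and the log2 fold change was -0.47 (SE 0.21, edgeR adjusted p = 0.29). The isoform typical of liver and of many other cell types, Cpt1a, stood at 37.6, 31.1, 46.4, 43.7 and 29.8 CPM and at 62.9, 35.2, 63.6, 33.8 and 54.2 CPM in the same order. HLI replicates 1, 3 and 5 lay above every Sham library, while HLI replicates 2 and 4 did not. The log2 fold change of Cpt1a was 0.41 (SE 0.21, edgeR unadjusted p = 0.073, adjusted p = 0.32), from 0.30 to 0.51 over the fits that left out 1 library.

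The ratio of the 2 isoforms within a library does not depend on how libraries are scaled to each other. Cpt1b exceeded Cpt1a in TPM by 9.27, 16.2, 7.84, 9.86 and 15.2 times in Sham replicates 1 to 5, and by 4.65, 8.68, 2.81, 12.5 and 5.65 times in HLI replicates 1 to 5. The muscle isoform was thus the more abundant in all 10 libraries, and 4 of 5 HLI libraries lay below the Sham median. The difference in the log2 ratio was -0.89 (SE 0.43, exact two-sided permutation p = 0.063, and 0.13 after adjustment over 6 ratios). The same 3 HLI libraries, 1, 3 and 5, that were high in Cpt1a had the highest sums of macrophage markers, at 2714, 2738 and 1523 CPM, and the part of those cells in the Cpt1a level was not tested.

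**Figure D3:**
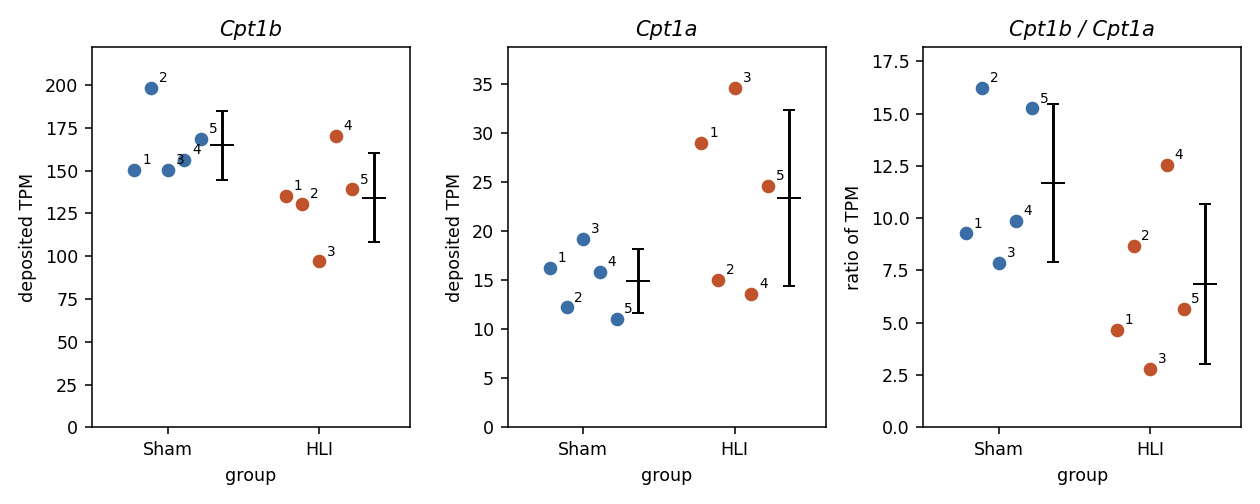
Deposited TPM of Cpt1b and Cpt1a and their ratio in each library (points, labelled by replicate number; bars are mean ± SD of 5 libraries). In HLI, replicates 1, 3 and 5 combine a high Cpt1a level with ratios between 2.81 and 5.65, below the lowest Sham ratio of 7.84.

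Slc25a20, the carnitine-acylcarnitine carrier of the inner membrane, stood at 49.7, 66.9, 57.3, 69.1 and 62.7 CPM in Sham replicates 1 to 5 and 49.5, 50.6, 33.6, 60.6 and 46.0 CPM in HLI replicates 1 to 5. Sham replicate 1 was lower than HLI replicates 2 and 4, the groups overlapped, and the log2 fold change was -0.35 (SE 0.15, edgeR adjusted p = 0.29). Cpt2, which returns the acyl group to CoA in the matrix, averaged 69.9 ± 7.17 CPM in Sham against 56.2 ± 11.3 CPM in HLI (SD, n = 5). Crat, which buffers acetyl-CoA as acetyl-carnitine, averaged 456 ± 38.4 against 339 ± 96.8 CPM, with 175 CPM in HLI replicate 3 and at least 341 CPM in the other HLI libraries.

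All 9 genes of the beta-oxidation spiral had values below 0 in the edgeR fit, with a median log2 fold change of -0.31 and a range of -0.42 to -0.14, and 2 of them, Acadl and Acads, were above 0 on unscaled TPM. Hadhb, the thiolase subunit of the mitochondrial trifunctional protein, stood at 307, 442, 378, 437 and 399 CPM in Sham replicates 1 to 5 and at 300.3, 285, 199.8, 381 and 304 CPM in HLI replicates 1 to 5. HLI replicates 1, 2, 3 and 5 lay below every Sham library, and the log2 fold change was -0.42 (SE 0.17, edgeR adjusted p = 0.29). Hadha, the partner subunit with hydratase and dehydrogenase activity, stood at 296, 391, 333, 397 and 362 CPM and 274, 287, 202, 355 and 313 CPM in the same order, a log2 fold change of -0.31 (SE 0.15). The Hadha to Hadhb ratio in TPM was narrow in both groups, from 0.446 to 0.488 in Sham and from 0.461 to 0.521 in HLI. All 5 HLI ratios lay above the Sham median, with a log2 difference of 0.10 (SE 0.04, exact two-sided permutation p = 0.056, and 0.13 after adjustment over 6 ratios). Echs1, the short-chain enoyl-CoA hydratase, stood at 75.4, 99.4, 78.4, 106 and 102 CPM in Sham and 71.1, 81.7, 48.8, 82.9 and 70.7 CPM in HLI, and 3 HLI libraries lay below every Sham library (log2 fold change -0.38, SE 0.16, edgeR adjusted p = 0.29).

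The acyl-CoA dehydrogenases, which open each round and divide the work by chain length, were ordered Acadvl, Acadl, Acadm and Acads in TPM in Sham. Their means in Sham ran from 246 TPM for Acadvl to 51.9 TPM for Acads, and Acads stood well below the other three. Their log2 fold changes were -0.33 (very long-chain), -0.14 (long-chain), -0.30 (medium-chain) and -0.17 (short-chain), with standard errors from 0.11 to 0.18 and edgeR adjusted p from 0.32 to 0.51. Acadm ranged in HLI from 144 CPM in replicate 3 to 285 CPM in replicate 4, which was above every Sham library. Hadh, the dehydrogenase for shorter chains, averaged 179 ± 22.2 CPM in Sham against 144 ± 27.3 CPM in HLI (SD, n = 5). Acaa2, a further thiolase beside Hadhb, averaged 144 ± 15.5 CPM in Sham against 124 ± 21.4 CPM in HLI.

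The 4 enzymes that deal with double bonds of unsaturated chains had values below 0, with a median of -0.25. Ech1, which shifts the bonds of a conjugated intermediate, stood at 133, 172, 143, 184 and 165 CPM in Sham replicates 1 to 5 and at 127, 132, 77.5, 147 and 136 CPM in HLI replicates 1 to 5. HLI replicate 3 was far below the others, Sham replicate 1 lay among the HLI values, and the log2 fold change was -0.36 (SE 0.17, edgeR adjusted p = 0.30). Eci2, an enoyl-CoA isomerase, stood at 49.9, 54.2, 47.4, 59.7 and 58.5 CPM and 46.4, 52.0, 35.3, 46.0 and 50.0 CPM in the same order, with overlapping groups and a log2 fold change of -0.23 (SE 0.12). The other isomerase gene Eci1 averaged 67.6 ± 9.72 against 59.4 ± 15.3 CPM, and the reductase gene Decr1 averaged 119 ± 13.4 against 99.7 ± 23.1 CPM.

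Electrons of the dehydrogenases pass through the electron transfer flavoprotein, made of the Etfa and Etfb products, to its oxidoreductase (Etfdh) and on to ubiquinone. Etfdh stood at 113, 131, 119, 142 and 112 CPM in Sham replicates 1 to 5 and at 86.6, 95.6, 75.4, 123 and 96.9 CPM in HLI replicates 1 to 5. HLI replicates 1, 2, 3 and 5 lay below every Sham library, and the log2 fold change was -0.37 (SE 0.14, edgeR unadjusted p = 0.018, adjusted p = 0.29). Etfb stood at 102, 123, 98.5, 136 and 119.8 CPM and 85.6, 105, 70.5, 119 and 97.1 CPM in the same order, and Etfa at 129, 129.9, 139, 172 and 129 CPM and 101, 130.5, 110.1, 163 and 121 CPM. Their groups overlapped, with log2 fold changes of -0.28 (SE 0.15) and -0.16 (SE 0.14), and Etfa was at 0.03 on unscaled TPM. The Etfa to Etfb ratio did not pass the test either, with a log2 difference of 0.10 (SE 0.10, exact two-sided permutation p = 0.33, and 0.40 after adjustment over 6 ratios).

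Genes that set the choice between fat and glucose, or that handle surplus acyl groups, all had values below 0 in the edgeR fit, with a median of -0.40 over 6. Pyruvate dehydrogenase kinases inhibit pyruvate dehydrogenase and so restrain the oxidation of glucose carbon in the mitochondrion. Pdk2, a kinase gene of muscle, stood at 351, 462, 364, 459 and 498 CPM in Sham replicates 1 to 5 and at 272, 337, 159.6, 416 and 305 CPM in HLI replicates 1 to 5. HLI replicates 1, 2, 3 and 5 lay below every Sham library, and the log2 fold change was -0.52 (SE 0.22, edgeR adjusted p = 0.29). Pdk4, the kinase gene known to rise in fasting, stood at 386, 523, 1412, 1129 and 193 CPM and at 606, 177, 537, 1057 and 629 CPM in the same order. Its highest library was 7.98 times its lowest, a wider span than for any other member, and with SDs of 518 CPM for Sham and 313 CPM for HLI this spread lay within the groups. Its log2 fold change of -0.28 (SE 0.53, adjusted p = 0.77 by edgeR) turned to 0.11 without Sham replicate 3 and was 0.07 on unscaled TPM.

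Ucp3, a mitochondrial carrier of muscle linked to fatty acid overload, stood at 89.6, 116, 114, 127 and 57.2 CPM in Sham replicates 1 to 5 and at 81.9, 39.5, 60.4, 122 and 81.4 CPM in HLI replicates 1 to 5. Sham replicate 5 and HLI replicate 2 were the lowest of their groups for Ucp3 and for Pdk4. The same held for Angptl4, a secreted inhibitor of lipoprotein lipase and a known PPAR target that is not a member, which read 14.3, 21.8, 53.0, 25.9 and 8.55 CPM in the Sham replicates in order and 41.8, 11.5, 36.9, 12.9 and 33.3 CPM in the HLI replicates. This pairing of libraries was noticed after the values were seen, crosses the groups, and is given as a description. The Pdk4 to Pdk2 ratio in TPM ran from 0.25 to 2.50 in Sham and from 0.339 to 2.20 in HLI, with a log2 difference of 0.44 (SE 0.74, exact two-sided permutation p = 0.56, also 0.56 after adjustment over 6 ratios). The log2 difference was -0.01 without Sham replicate 5.

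**Figure D4:**
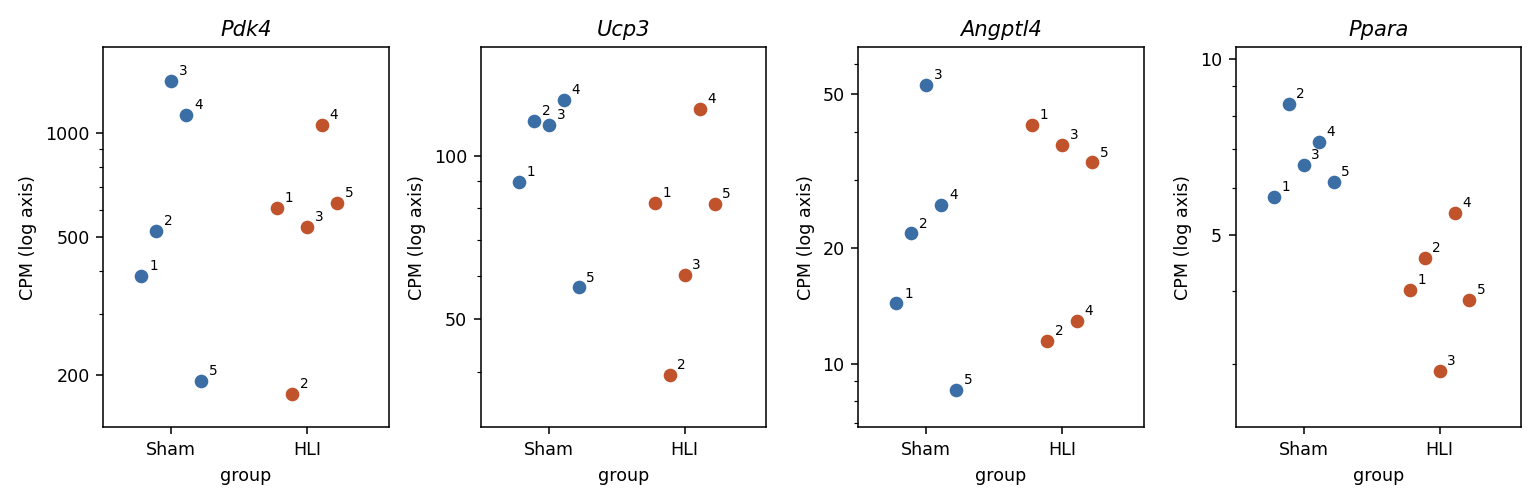
CPM on log axes of Pdk4, Ucp3, Angptl4 and Ppara in each library, labelled by replicate number. Sham replicate 5 and HLI replicate 2 are lowest in their groups for the first 3 genes, and for Ppara all HLI points lie below 5.79 CPM, the lowest Sham point.

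Acot13, a thioesterase gene that releases fatty acids from CoA, was the second lowest in unadjusted p of the 35. It stood at 52.5, 55.8, 50.1, 67.6 and 60.5 CPM in Sham replicates 1 to 5 and at 38.1, 45.1, 32.1, 51.7 and 47.3 CPM in HLI replicates 1 to 5. HLI replicate 4, at 51.7 CPM, was the sole HLI library above the lowest Sham value of 50.1 CPM, and the log2 fold change was -0.42 (SE 0.14, edgeR unadjusted p = 0.011, adjusted p = 0.29). Acot2, a mitochondrial thioesterase gene, averaged 13.8 ± 3.77 CPM in Sham against 9.64 ± 3.50 CPM in HLI, and Mlycd, whose enzyme removes the CPT1 inhibitor malonyl-CoA, averaged 59.1 ± 9.95 against 46.2 ± 14.8 CPM (SD, n = 5).

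Besides the 4 ratios above, those of the transporter and receptor pairs were tested. The Slc27a4 to Slc27a1 ratio in TPM was 0.319 in Sham replicate 1 and between 0.185 and 0.215 in the other Sham libraries, and it lay between 0.258 and 0.581 in HLI. All 5 HLI libraries exceeded the Sham median, and the log2 difference was 0.62 (SE 0.24, exact two-sided permutation p = 0.024, and 0.13 after adjustment over 6 ratios). The Ppard to Ppara ratio ran from 2.69 to 4.94 in Sham and from 3.18 to 5.81 in HLI, with a log2 difference of 0.40 (SE 0.21, exact two-sided permutation p = 0.10, and 0.15 after adjustment). None of the 6 ratios passed the adjusted threshold of 0.05, and the smallest p that 5 libraries against 5 allow is 0.0079.

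The sum of the 35 genes was compared with that of the 19 fast and slow fibre markers in the same library. The 35 genes summed to 5547 ± 476 TPM in Sham and 5039 ± 500 TPM in HLI, and the fibre markers to 165393 ± 16244 and 130636 ± 25701 TPM (SD, n = 5). Relative to the fibre markers, the 35 genes made up 3.26%, 3.27%, 4.10%, 3.62% and 2.69% in Sham replicates 1 to 5. In HLI replicates 1 to 5 they made up 3.67%, 3.14%, 5.10%, 3.71% and 4.21%. The groups overlapped, the highest share was in HLI replicate 3, the library lowest for both sums, and the mean log2 ratio was 0.22 higher in HLI, or 0.12 without HLI replicate 3. A sum of TPM is weighted by its abundant genes. Among them Pdk4 stood at 724 TPM in Sham replicate 3 and 88.9 TPM in Sham replicate 5, the libraries with the highest and lowest Sham share. The part of single genes in the share was not tested. The fast fibre markers had a median log2 fold change of -0.51, and 3 lists of neighbouring energy pathways had medians of -0.28 (13 respiratory chain and ATP synthase genes), -0.31 (11 citric acid cycle genes) and -0.32 (11 glycolysis genes). All genes of those 3 lists had values below 0 in the edgeR fit, beside 46.2% of all tested genes. Markers of macrophages and of regenerating fibres had medians of 1.09 and 2.38.

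**Figure D5:**
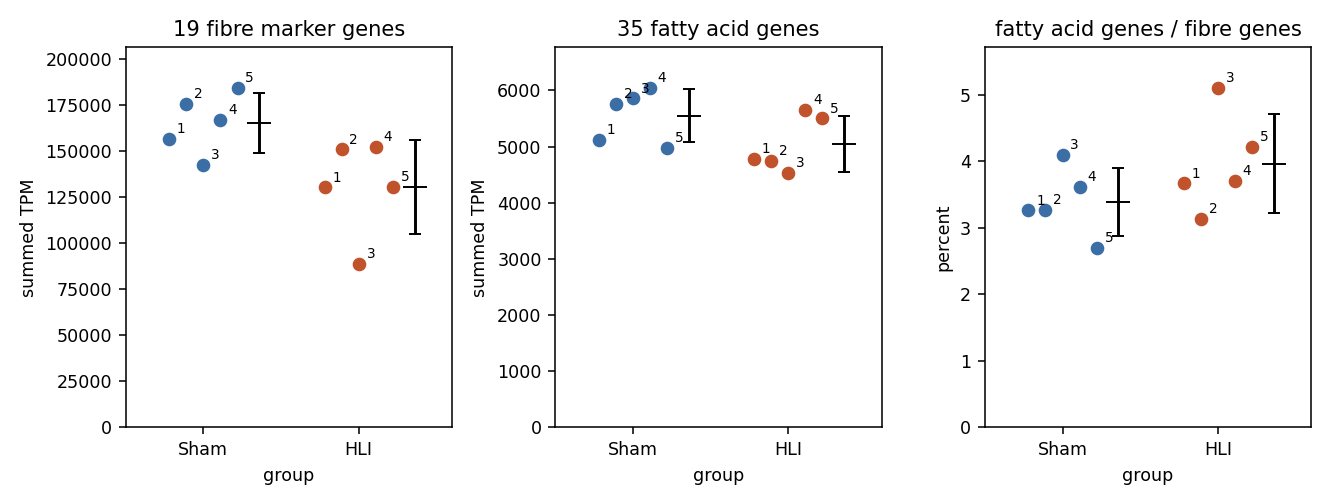
Summed deposited TPM of 19 fibre marker genes and of the 35 fatty acid genes, and the second as a percentage of the first, in each library (points, labelled by replicate number; bars are mean ± SD of 5 libraries). HLI replicate 3 is lowest in both sums and highest, at 5.10%, in the percentage.

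Of 59 further genes of lipid metabolism in 8 lists, 0 were called in either direction by edgeR, beside 0% of all tested genes. At an unadjusted p under 0.05 in edgeR, 9 were lower and 1 was higher, beside 6.15% and 10.7% of all tested genes. Values below 0 were found in 43 of the 59, with a median of -0.20, and in 46.2% of all tested genes. The 8 partners of the PPARs had a median of -0.23. Among them Esrra, the estrogen-related receptor α gene, averaged 48.9 ± 6.27 CPM in Sham against 35.5 ± 8.23 CPM in HLI (log2 fold change -0.46, SE 0.16), and the coactivator gene Ppargc1a averaged 27.8 ± 2.64 against 23.9 ± 9.13 CPM. In the list on malonyl-CoA, with a median of -0.31, Acacb, the mitochondrial acetyl-CoA carboxylase whose product inhibits CPT1, averaged 340.2 ± 62.1 against 223 ± 80.6 CPM (-0.61, SE 0.25). Among 9 lipid droplet and lipolysis genes, with a median of -0.22, Pnpla2 (adipose triglyceride lipase) averaged 209 ± 26.9 against 153 ± 37.2 CPM and Plin5, a droplet protein of oxidative tissue, averaged 8.99 ± 3.24 against 6.06 ± 2.32 CPM.

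The ketone body enzyme gene Bdh1 had the lowest log2 fold change of the 59, at -1.19 (SE 0.41). It stood at 25.3, 64.8, 50.6, 68.0 and 55.2 CPM in Sham replicates 1 to 5 and at 42.5, 16.3, 6.28, 30.4 and 20.7 CPM in HLI replicates 1 to 5. Sham replicate 1 lay among the HLI values, and edgeR's adjusted p was 0.29. The other mitochondrial acyl-CoA enzymes, with Bdh1 10 genes, had a median of -0.21, and the 9 peroxisomal genes one of -0.11. Among 6 genes of fatty acid synthesis, with a median of -0.24, Me1, a source of NADPH, averaged 345 ± 50.0 against 224 ± 77.6 CPM. Its adjusted p by edgeR was 0.29. Me1 was the 1 gene of the 59 with every HLI library below every Sham library, beside 0.873% of all tested genes. Of the 5 other acyl-CoA synthetases, with a median of 0.06, Acss1, which activates acetate in mitochondria, averaged 28.0 ± 4.56 against 22.5 ± 5.29 CPM. The 6 capillary and lipoprotein genes had a median of 0.10. Fabp5, a fatty acid-binding protein of endothelium, macrophages and other cells, averaged 23.5 ± 7.38 CPM in Sham against 44.0 ± 18.3 CPM in HLI (log2 fold change 0.90, SE 0.28, edgeR adjusted p = 0.29), and Gpihbp1, the capillary anchor of lipoprotein lipase, averaged 33.1 ± 6.82 against 40.7 ± 10.1 CPM. Fabp5 was highest in HLI replicates 1 and 3, the libraries with the highest macrophage marker sums, and the part of those cells was not tested.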

How the data were processed

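Poly(A) RNA of gastrocnemius muscle was sequenced as paired-end Illumina libraries, per the labels' protocols. The labels disagree on the RNA reagent, the sequencing company and the material. HISAT2 2.0, Bowtie 0.12.2 and the build mm8 appear in the submitters' processing notes, with no role given. For the counting tool, the annotation and the use of strand the sources used here give nothing, and genes that overlap on opposite strands cannot be told apart. The authors deposited an estimated count (expected count, not normalized, per the file headers) and a TPM value for each gene and library. Of the estimated counts, 93.4% were found to be whole numbers.

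Estimated counts were rounded and tested in R 4.3.3 with edgeR 4.0.16 (quasi-likelihood test, TMM, filterByExpr at its minimum count of 10 and minimum total of 15, no covariate), over 13404 of 21956 genes, at a Benjamini-Hochberg adjusted p under 0.05. The biological coefficient of variation was 0.252. The test was tried first on simulated counts with known changes. It recovered 72% of genes changed 2-fold and 97% of those changed 4-fold, with 4.52% false among its calls. Smaller changes were not simulated. Ratios of 2 members used log2 TPM and an exact permutation test over libraries. Alternatives were leaving out libraries, a replicate block, no filter, DESeq2 size factors, DESeq2 1.42.0, and limma 3.58.1 on log2(TPM + 1) and log2(TPM + 0.1). Leaving out both libraries numbered 1, and the count at an unadjusted p under 0.05, were added after the data were seen.

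The members, lists and tests were chosen with earlier results of these data known. Values in every library are given for the 2 members of each role group with the smallest unadjusted p and both genes of each ratio. Of each of the 8 pathway lists, the gene of lowest unadjusted p is named, among those averaging 1 CPM or more, and 6 fixed genes, Acacb, Ppargc1a, Angptl4, Gpihbp1, Plin5 and Pnpla2. One gene that this rule would name is not reported here. Values of Bdh1, Ucp3 and Angptl4 in every library were added after they were seen.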

Additional observations from a re-analysis of the deposited data

Results flagged for a closer look

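In 7 of 106 groups of 5 values looked at (46 named genes and 6 ratios in each group, and the ratio to fibre genes), 1 library lay farther from the others than Dixon's 95% critical value of 0.71 allows, and chance alone flags about 1 in 20 such groups. HLI replicate 3 was the low library for Ech1 (77.5 CPM, against 127 to 147 CPM in the other HLI libraries) and Me1 (89.2 CPM, against 230.5 to 278 CPM). Sham replicate 4 was high for Etfa (172 CPM, against 129 to 139 CPM), and Sham replicate 5 for Ppard (32.8 CPM, against 19.5 to 23.3 CPM). Sham replicate 1 was high for Gpihbp1 (44.6 CPM, against 27.9 to 32.6 CPM) and for the log2 ratio of Slc27a4 to Slc27a1 (-1.65, against -2.43 to -2.22). HLI replicate 2 was low for the log2 ratio of Pdk4 to Pdk2 (-1.56, against 0.41 to 1.14).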

How the results depend on the processing

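No member and no pathway gene was called under any alternative run, and the median member difference kept its sign, from -0.45 to -0.23 over fits that left out 1 library. The count of members lower at an unadjusted p under 0.05 was 12, from 5 to 25 when 1 library was left out, 23 with the replicate number as a block (9.5% of all genes), and 6 on log2(TPM + 1) (1.99%) and on log2(TPM + 0.1) (2%); the cause was not tested. Members with every HLI library below every Sham library numbered 1, from 1 to 12 when 1 library was left out, 2 on TPM (0.403% of all genes) and 2 without both libraries numbered 1 (4.46%). The replicate block changed no call, and it gives no such separation count. The numbers were not taken as pairs, since same-numbered libraries correlated at 0.00012, 0.18, 0.28, 0.19 and -0.0090 in their deviations from the group means, and the same number gave the highest correlation for 2 of 5 numbers. Of 782 values of 46 named genes under alternatives, 759 kept their sign, and 23, of 8 genes, did not. On log2(TPM + 1) the values above 0 were Cd36 0.11, Lpl 0.0077, Acadl 0.047, Acads 0.034, Etfa 0.026 and Pdk4 0.068, and on log2(TPM + 0.1) Cd36 0.11, Lpl 0.0079, Acadl 0.048, Acads 0.035, Etfa 0.027 and Pdk4 0.068. Leaving out 1 library gave a range of -0.15 to 0.017 for Cd36, -0.0050 to 0.068 for Slc27a4, -0.58 to 0.11 for Pdk4 and -0.075 to 0.62 for Angptl4, and leaving out both libraries numbered 1 gave 0.036 for Cd36, -0.0053 for Slc27a4 and -0.21 for Angptl4. The Pdk4 to Pdk2 log2 ratio difference ranged from -0.011 to 0.89. All 35 members passed the filter on low counts, and the part of depth in the absence of calls was not tested.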
